A study of Mus musculus with 4 samples.

Results

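Imprinted genes were followed in mouse embryonic stem cells (ESCs) with and without knockdown of Ythdf2. The set held 47 genes from 19 imprinted loci, and members were the rows of the count table that carried one of these symbols. 46 of the 47 had a row, out of 49997 rows in all. The remaining symbol, Nespas, is listed by RefSeq as a synonym of Gnasas1, a row described with the Gnas locus below. All cells were of the E14 line, a pluripotent line from the early embryo, grown on gelatin in serum replacement with leukemia inhibitory factor. They carried a lentiviral short hairpin RNA (shRNA) and were kept under puromycin as stable lines. The study states that its ESCs also held a tdTomato reporter gene under the promoter of the retrotransposon MERVL. The control hairpin had a scrambled sequence (shScramble, 2 libraries), and the other was directed at Ythdf2 (shYthdf2, 2 libraries). The study lists more than one hairpin against Ythdf2, and the labels do not say which was used in a given library, so hairpin and replicate cannot be told apart. The study calls the replicates of a group independent biological replicates, but the labels name no separate cultures, so the p-values cover the spread between these samples.

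An imprinted gene is transcribed mainly from 1 parental copy. The choice is carried by DNA methylation that is laid down in the egg or the sperm and kept after fertilization by the zinc finger protein ZFP57 and its partner TRIM28. At several loci a long noncoding RNA made from the active control region, such as Kcnq1ot1 or Airn, silences its neighbours in cis. Imprints are known to be unstable in cultured ESCs, and both copies of a gene may become active or silent as a line is passaged. YTHDF2, the targeted protein, binds mRNAs that carry N6-methyladenosine and brings them to the deadenylation machinery. The reads here carry no allele, so each value is the summed level of both parental copies.

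Promoter sequence was read for the members from the RefSeq promoter table (build GRCm38.p6, 250 bases before and 50 after each start). ZFP57 binds the hexamer TGCCGC when its CG is methylated, and this hexamer was searched as TGCCGC and, for the other strand, as GCGGCA. 37 of the 47 members had an entry, with 54 windows among them, some of which overlap. The hexamer lay in 12 of these windows (22.2%), against 3809 of 32817 windows of all genes (11.6%). The members' windows were also richer in CG dinucleotides, with a median of 15 against 7 per window. Among windows of paternally expressed members 8 of 29 (27.6%) held the hexamer, and among those of maternally expressed members 4 of 25 (16.0%). A match describes the letters only and was not tied to binding. Kcnk9, Rtl1, Impact, Cdkn1c, Peg13, Sgce, Nespas, Trappc9, H19 and Peg10 had no entry. The first 2 windows below belong to members that passed the test between the groups, and the other 2 belong to members whose window held the hexamer at 2 places. Capitals mark the hexamer, and each window reads 5′ to 3′ on the gene's strand. They lie at chr10:13090582-13090881 (plus strand, Plagl1), chr11:11898095-11898394 (minus strand, Ddc), chr6:30737800-30738099 (plus strand, Mest) and chr6:58907077-58907376 (minus strand, Nap1l5).
Plagl1: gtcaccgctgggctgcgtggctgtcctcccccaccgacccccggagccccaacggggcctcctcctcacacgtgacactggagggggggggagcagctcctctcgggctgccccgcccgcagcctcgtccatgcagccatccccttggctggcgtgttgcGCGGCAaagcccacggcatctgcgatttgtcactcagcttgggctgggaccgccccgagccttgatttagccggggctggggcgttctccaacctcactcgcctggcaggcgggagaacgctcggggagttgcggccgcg
Ddc: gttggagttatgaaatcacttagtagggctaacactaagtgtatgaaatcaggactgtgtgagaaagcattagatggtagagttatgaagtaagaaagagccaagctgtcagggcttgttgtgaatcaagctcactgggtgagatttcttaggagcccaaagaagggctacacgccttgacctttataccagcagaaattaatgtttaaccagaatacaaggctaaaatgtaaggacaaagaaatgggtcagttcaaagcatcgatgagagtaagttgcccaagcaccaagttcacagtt
Mest: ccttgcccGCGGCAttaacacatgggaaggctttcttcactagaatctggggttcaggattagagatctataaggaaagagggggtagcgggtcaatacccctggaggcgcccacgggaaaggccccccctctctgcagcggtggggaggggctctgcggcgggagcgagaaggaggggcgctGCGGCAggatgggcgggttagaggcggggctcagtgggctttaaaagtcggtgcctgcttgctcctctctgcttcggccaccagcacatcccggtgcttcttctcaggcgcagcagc
Nap1l5: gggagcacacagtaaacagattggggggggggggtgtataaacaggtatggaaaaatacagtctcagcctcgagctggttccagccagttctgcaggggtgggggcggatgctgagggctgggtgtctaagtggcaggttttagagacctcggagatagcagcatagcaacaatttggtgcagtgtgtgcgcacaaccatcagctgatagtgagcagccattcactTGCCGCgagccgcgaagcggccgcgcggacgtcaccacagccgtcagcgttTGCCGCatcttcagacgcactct

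The Plagl1 window held 26 CG dinucleotides and 1 hexamer, and the Ddc window held 2 CG dinucleotides and no hexamer. The windows of Mest and Nap1l5 each held 17 CG dinucleotides. Plagl1 and Ddc thus start from promoters of unlike base composition.

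The libraries held 36422510 and 31113006 reads for shScramble and 34812976 and 35305720 for shYthdf2. Levels are given as deposited reads and as CPM, the count scaled to a common library total, with edgeR's TMM factors. For a gene without a read, 3 reads (0.0833 to 0.0952 CPM, depending on the library) are taken as the upper limit, for counting error only. Ythdf2 itself had 3365 and 2760 reads in shScramble and 1086 and 1082 in shYthdf2, a log2 fold change of -1.55 with an SE of 0.11 (adjusted p = 0.000693, edgeR). ESC markers were present in every library, with a summed level between 5668 and 6592 CPM, and 1 of 9 changed, Tdgf1 (Cripto), which was lower by a log2 fold change of -0.47, while Nanog and Dppa5a were lower at an unadjusted p under 0.05 only. Summed markers of primitive endoderm (59.2 to 86.7 CPM), mesoderm (21.5 to 29.7), trophoblast (85.2 to 115) and fibroblasts (9.54 to 18) were low. Their tested genes numbered 7, 6, 7 and 3, with Hand1 listed for both mesoderm and trophoblast, and none passed in edgeR. An unadjusted p under 0.05 was reached by 5 lower (T, Gata3, Krt8, Krt18 and Col1a1), where all genes had 9.80%. It was reached by 1 higher, where all genes had 11.0%, and this was Tfap2c, which made up most of the trophoblast sum. Neuroectoderm markers summed to 149 and 104 CPM in shScramble and to 231 and 169 in shYthdf2. Most of this was Tubb3, with 115 and 69.2 CPM in shScramble and 179 and 126 in shYthdf2, which did not pass (adjusted p = 0.102, edgeR). Of the 5 tested, only Nes passed, higher by a log2 fold change of 0.79. Pax6 (0.56), Sox1 (0.10) and Map2 (-0.31) did not pass. Markers of the 2-cell-like (2C-like) state summed to 35.4 and 57.1 CPM in shScramble and to 81.3 and 239 in shYthdf2 replicates 1 and 2. Of these, Zscan4a, Usp17la and Gm4340 passed as higher. The part of these markers in the members' values was not tested. In bulk libraries, fewer cells expressing a gene and less RNA per cell cannot be told apart.

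Imprinted genes of these ESCs spanned a wide range of levels. 32 members had more than 100 reads in every library and 17 had more than 1000. Per length, the 3 highest were Rian, a host transcript of small nucleolar RNAs, Cd81, a cell surface tetraspanin, and Mest, a hydrolase-fold protein. In RPKM, the CPM divided by the exon length in kilobases, Rian stood at 104 ± 4.55 in shScramble and 95.3 ± 5.83 in shYthdf2 (SD, n = 2). Cd81 stood at 93.4 ± 2.16 and 128 ± 24.9 RPKM, and Mest at 63.4 ± 10.8 and 59.6 ± 2.24 RPKM (SD, n = 2). At the other end Airn, Asb4, Kcnk9, Snrpn and Mcts2 had 0 to 12 reads and were too low for the test. The remaining 41 members were tested. Of these, Igf2, Slc22a18 and Magel2 had fewer than 10 reads in at least 1 library, and Magel2 had fewer than 10 in both shScramble libraries, so that it entered the test through its shYthdf2 reads. The plot of reads by member shows this range.

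**Figure D1:**
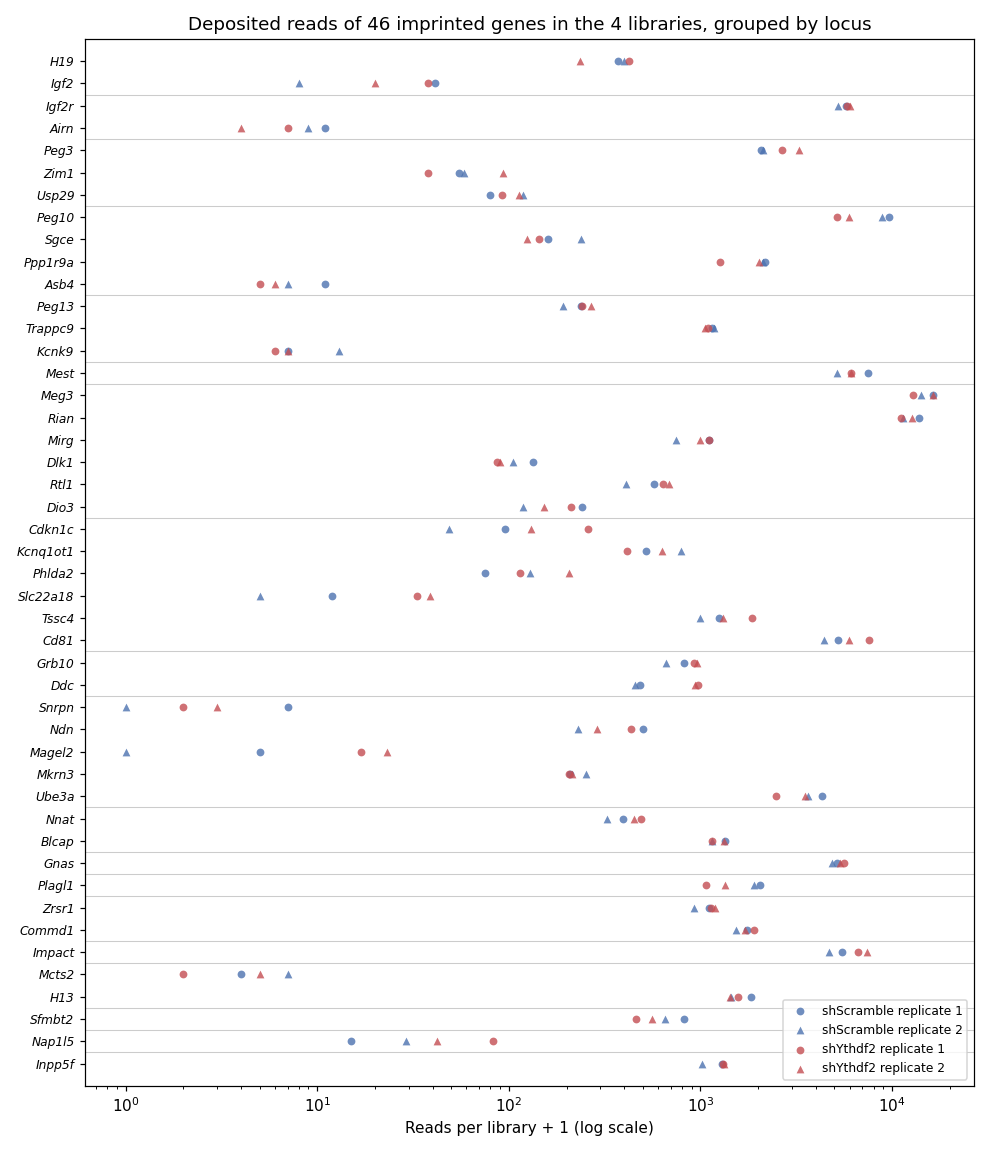
Deposited reads plus 1 (x axis, log scale) of the 46 imprinted genes with a row, grouped by locus, with 1 point per library (circles replicate 1, triangles replicate 2). For most members the 4 points lie close together. Slc22a18, Magel2 and Ddc have both shYthdf2 points to the right of both shScramble points by a wide step. Others, such as Nap1l5, Cdkn1c, Peg3, Impact and Cd81, have the same order by a smaller step.

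Between the groups, 1 of the 41 tested members was higher in shYthdf2 (Ddc) and 2 were lower (Peg10 and Plagl1) at an adjusted p under 0.05 in edgeR's quasi-likelihood test. Over all 18341 genes tested, 2.43% were called higher and 1.49% lower, and counts of 1 and 2 in 41 genes show nothing particular to imprinted genes beside these shares. Both shYthdf2 libraries lay above both shScramble libraries in 16 of 41 members, a larger share than the 26.2% of all genes. They lay below in 8 of 41, a smaller share than the 25.5% of all genes. Together that is 24 of 41 members (58.5%) and 51.8% of all genes. Members had a median log2 fold change of 0.08, and all genes one of 0.00, and the median of its size was 0.30 in members and 0.25 in all genes. At an unadjusted p under 0.05 there were 10 of 41 members higher, a larger share than the 11.0% of all genes. At the same level 5 of 41 were lower, against 9.80%. These shares were not tested against each other. The number called moved with the libraries and the tool. With DESeq2 it was 5 higher and 4 lower among the 46 members with a row. All genes had 5.08% and 3.82% of the 15750 given an adjusted p. With 1 library left out the counts moved too, for members and for all genes. Ddc, Peg10 and Plagl1 passed in all 13 other settings. By the study's own criteria (DESeq2, unadjusted p up to 0.05 with a log2 fold change of 1 or more in size) 4 of 46 members were higher. That is a larger share than the 1.63% of 30565 genes, and 0 of 46 members were lower, against 1.25%. These 4 were Cdkn1c, Slc22a18, Magel2 and Nap1l5, and all were thinly covered in shScramble, with 0 to 94 reads.

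**Figure D2:**
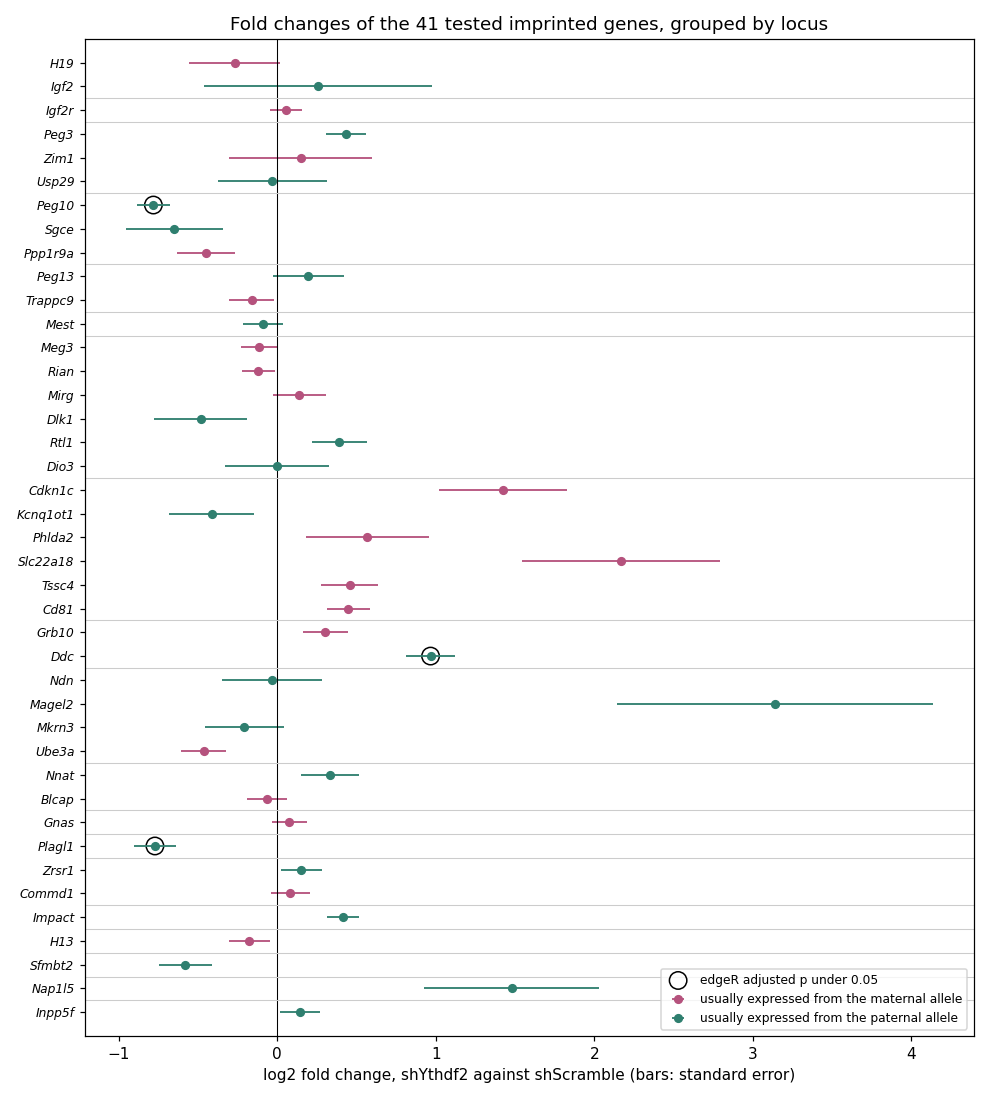
Log2 fold change of shYthdf2 against shScramble (x axis) with its SE for the 41 tested members, grouped by locus and coloured by the allele each gene is usually expressed from, with rings on the 3 members past the threshold. Peg10 and Plagl1 lie near -0.78 and -0.77 and Ddc near 0.97, while the largest fold changes, those of Magel2 (3.14) and Slc22a18 (2.17), have wide bars.

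Peg10 encodes a Gag-Pol protein derived from a retrotransposon and needed in the placenta, and it is expressed from the paternal copy. It lies on chromosome 6 from 4747306 to 4760517 (mm10, plus strand). It had 9652 and 8820 reads in shScramble and 5179 and 5982 in shYthdf2, or 268 and 280 CPM against 151 and 167 CPM. Both knockdown libraries were thus well below both controls. It fell by 0.78 on the log2 scale with an SE of 0.11 (adjusted p = 0.00643, edgeR), which put shYthdf2 at 58.2% of the shScramble mean. Leaving out any 1 library kept the log2 fold change between -0.85 and -0.71. Its neighbours had the same sign without passing. Sgce, a sarcoglycan read from the same control region in the opposite direction, had 160 and 236 reads in shScramble and 142 and 123 in shYthdf2 (log2 fold change -0.65, adjusted p = 0.265). Ppp1r9a (neurabin, imprinted in placenta) had 2167 and 2124 reads against 1257 and 2028 (-0.45, adjusted p = 0.198), with shYthdf2 replicate 1 alone far below the controls. Asb4, a ubiquitin ligase adaptor of the same cluster, had 10 and 6 against 4 and 5 reads and was not tested.

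Plagl1 encodes the zinc finger transcription factor ZAC1 and is also paternally expressed. It lies on chromosome 10 from 13090832 to 13131694 (plus strand). Reads numbered 2046 and 1907 in shScramble and 1066 and 1342 in shYthdf2, equal to 56.8 and 60.5 CPM against 31.2 and 37.5 CPM. The groups did not overlap, and the shYthdf2 libraries differed from each other by less than from either control. Plagl1 fell by 0.77 on the log2 scale with an SE of 0.13 (adjusted p = 0.0161, edgeR), and the log2 fold change stayed between -0.91 and -0.65 with any 1 library left out. Plagl1 shares 4.08% of its exon bases with the noncoding Hymai, and reads lying over both genes were not counted for either.

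Ddc, the decarboxylase that makes dopamine and serotonin, is paternally expressed in the heart and shares its imprinted cluster with Grb10. It lies on chromosome 11 from 11814101 to 11898144 (minus strand). There were 484 and 453 reads in shScramble and 968 and 932 in shYthdf2, or 13.4 and 14.4 CPM against 28.3 and 26 CPM. The knockdown libraries stood at nearly double the controls with little spread in either group. Ddc rose by 0.97 on the log2 scale with an SE of 0.15 (adjusted p = 0.0132, edgeR), a ratio of 1.95, and the log2 fold change lay between 0.90 and 1.03 with any 1 library left out. Grb10, an adaptor that restrains the insulin and IGF receptors, had 821 and 657 reads in shScramble and 925 and 958 in shYthdf2. Its CPM did not overlap between the groups, but the difference was small and did not pass (log2 fold change 0.30, adjusted p = 0.266). Grb10 is usually maternal outside neurons, so here both parental classes of a cluster lay on the same side.

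**Figure D3:**
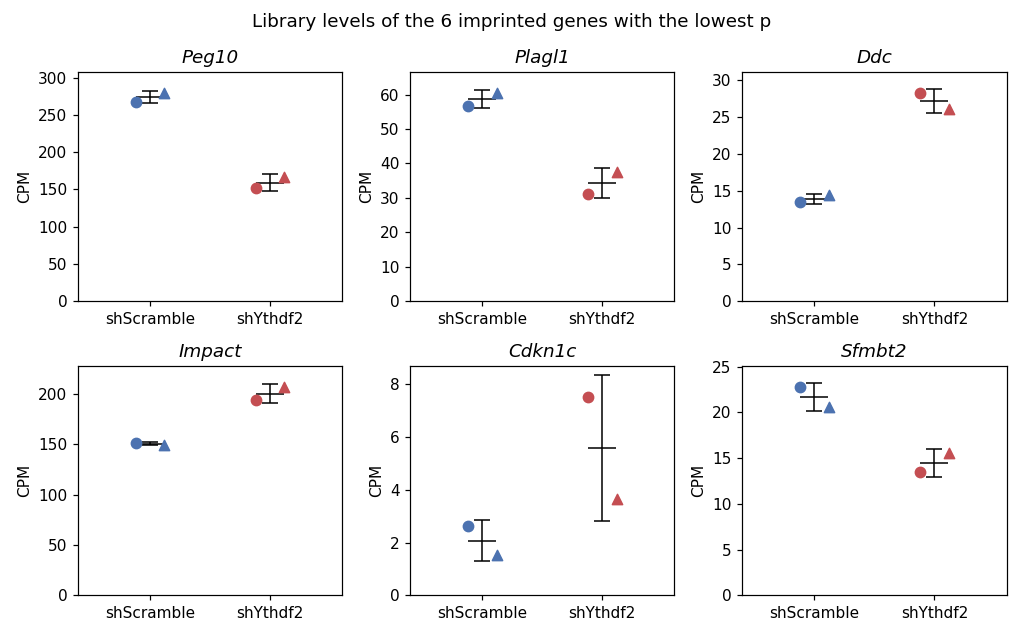
CPM (y axis, from 0) of the 6 imprinted genes with the lowest p, with 1 point per library (blue shScramble, red shYthdf2, circles replicate 1, triangles replicate 2), and bars for the mean ± SD (n = 2). The groups are far apart relative to the SD in Peg10, Plagl1, Ddc, Impact and Sfmbt2, and in Cdkn1c the shYthdf2 libraries differ from each other at 7.52 and 3.63 CPM.

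The Kcnq1 locus on distal chromosome 7 holds the largest group of maternally expressed members. On the paternal copy Kcnq1ot1 is transcribed and its neighbours can be silent. Since the reads carry no allele, whether the paternal copies of these neighbours were silent in these cells cannot be read. All 5 maternally expressed members of the locus had a positive log2 fold change, with a median of 0.57, and none passed in edgeR. Of all 18341 genes tested, 9213 were positive. Imprinted genes nearby that are not members went both ways, and none passed. Ascl2 (0.56), Tspan32 (0.56) and Osbpl5 (0.70) were positive, and Nap1l4 (-0.11) and Tnfrsf23 (-0.57) were negative. With no filter on low counts, Cdkn1c, Slc22a18, Tssc4 and Cd81 passed. In that setting 1095 of 30565 genes were called higher and 843 lower, against 445 and 273 of 18341 with the filter. Cdkn1c, the cyclin-dependent kinase inhibitor p57, lies from 143458339 to 143461059 (minus strand) and had the lowest p of the locus. It had 94 and 48 reads in shScramble and 257 and 130 in shYthdf2, or 2.61 and 1.52 CPM against 7.52 and 3.63 CPM. Both knockdown libraries were above both controls, but replicates within a group differed by 0.75 and 1.04 on the log2 scale. This gave Cdkn1c a log2 fold change of 1.42 with an SE of 0.40 (adjusted p = 0.0827, edgeR). DESeq2 gave an adjusted p of 0.0209. The estimate was 1.87 without shScramble replicate 1 and 1.86 without shYthdf2 replicate 2, where it passed, and 0.81 without shYthdf2 replicate 1, where it did not.

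Slc22a18, an organic cation transporter family member, had 11 and 4 reads in shScramble and 32 and 38 in shYthdf2 (0.305 and 0.127 against 0.936 and 1.06 CPM). The groups were clearly separated, on few reads. Its log2 fold change was 2.17 with an SE of 0.62 (adjusted p = 0.0861, edgeR). Leaving out shScramble replicate 1 raised it to 2.94, where it passed, and leaving out replicate 2 of that group gave 1.70. Cd81 had 5192 and 4396 reads in shScramble and 7532 and 5975 in shYthdf2, or 144 and 140 CPM against 220 and 167 CPM. The control libraries were nearly equal and shYthdf2 replicate 1 was the highest. Its log2 fold change was 0.45 with an SE of 0.13 (adjusted p = 0.0973, edgeR), and 0.0278 in DESeq2. Tssc4, a spliceosome assembly factor next to Cd81, had 1248 and 994 reads against 1857 and 1307 (log2 fold change 0.46, adjusted p = 0.186, edgeR). It fell to 0.14 when shYthdf2 replicate 1 was left out and reached 0.71 when shYthdf2 replicate 2 was, where it passed (adjusted p = 0.000361, edgeR). Phlda2, which limits growth of the placenta, had 74 and 128 reads in shScramble and 114 and 204 in shYthdf2 (log2 fold change 0.57, adjusted p = 0.451), and its groups overlapped.

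Kcnq1ot1, the silencing RNA, lay on the other side. It had 516 and 794 reads in shScramble and 413 and 627 in shYthdf2, or 14.3 and 25.2 CPM against 12.1 and 17.5 CPM. The groups overlapped, since shYthdf2 replicate 2 was above shScramble replicate 1. For Kcnq1ot1 the log2 fold change was -0.41 with an SE of 0.27 (adjusted p = 0.427, edgeR). It turned to 0.048 without shScramble replicate 2, and it passed at -0.77 without shScramble replicate 1 and at -0.71 without shYthdf2 replicate 2. In both groups Cdkn1c, Tssc4 and Cd81 were higher in replicate 1, and Kcnq1ot1 and Phlda2 were higher in replicate 2. Slc22a18 was higher in replicate 1 of shScramble and in replicate 2 of shYthdf2. Replicates kept the same order in both groups in 60.6% of all genes, and a relation between these genes was not tested. The summed level of the 5 maternal genes was 184 and 177 CPM in shScramble and 286 and 214 CPM in shYthdf2, most of it Cd81.

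**Figure D4:**
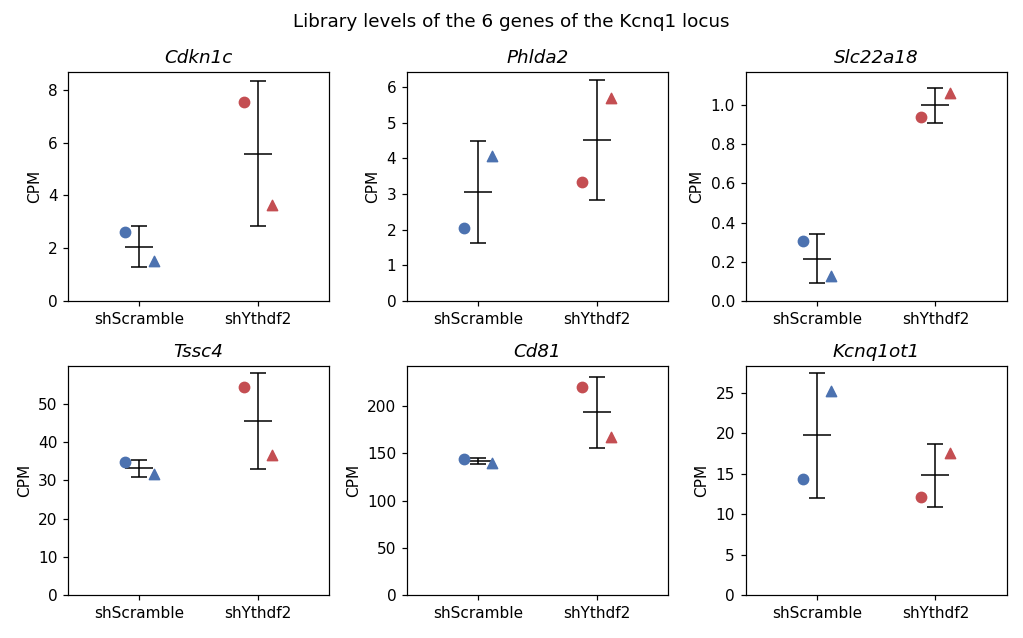
CPM (y axis, from 0) of the 6 genes of the Kcnq1 locus, with 1 point per library (blue shScramble, red shYthdf2, circles replicate 1, triangles replicate 2) and bars for the mean ± SD (n = 2). The groups do not overlap in Cdkn1c, Slc22a18, Tssc4 and Cd81 and overlap in Phlda2 and in Kcnq1ot1, the paternally expressed noncoding RNA.

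The Dlk1-Dio3 cluster on chromosome 12 is methylated on the paternal copy, and its maternal noncoding RNAs can be lost in ESC lines. They were high in all 4 libraries. Meg3 had 16373 and 14090 reads in shScramble and 12927 and 16263 in shYthdf2 (455 and 447 against 378 and 454 CPM). Rian had 13790 and 11336 reads against 11177 and 12758, or 383 and 360 against 327 and 357 CPM. The groups were close for both, and shYthdf2 replicate 1 was the lowest library in each. Their log2 fold changes were both -0.12, with an SE of 0.11 for Meg3 (adjusted p = 0.621) and of 0.10 for Rian (adjusted p = 0.563, edgeR). Mirg, the host of a microRNA cluster, had 741 to 1112 reads and a log2 fold change of 0.14 (adjusted p = 0.694). Thus the 3 maternal RNAs of the cluster did not pass, with estimates within 0.14 of 0.

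The paternally expressed protein genes of the cluster were much lower. Rtl1, a retrotransposon-derived protein of placenta and muscle, had 571 and 410 reads in shScramble and 637 and 688 in shYthdf2 (15.9 and 13 against 18.6 and 19.2 CPM). Both knockdown libraries were above both controls. For Rtl1 the log2 fold change was 0.39 with an SE of 0.17 (adjusted p = 0.233, edgeR). Rtl1 lies antisense to Meg3 and shares 20.9% of its exon bases, and the counting used no strand, so its reads cannot be kept apart from transcripts of the other strand. Dlk1, a transmembrane protein with EGF repeats, had 133 and 104 reads against 86 and 89 (log2 fold change -0.48, adjusted p = 0.390). Dio3, the deiodinase that inactivates thyroid hormone, had 239 and 117 against 210 and 151 reads, with more spread within the groups than between them.

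The other locus methylated on the paternal copy, Igf2-H19, showed no call. H19, a maternally expressed noncoding RNA, had 369 and 398 reads in shScramble and 425 and 235 in shYthdf2 (10.2 and 12.6 against 12.4 and 6.57 CPM). The shYthdf2 libraries lay on either side of the controls. H19 had a log2 fold change of -0.27 with an SE of 0.29 (adjusted p = 0.646, edgeR), and it turned to 0.12 without shYthdf2 replicate 2. Igf2, the fetal growth factor of the locus, had 40 and 7 reads in shScramble and 37 and 19 in shYthdf2 (log2 fold change 0.25, adjusted p = 0.888), and its shScramble replicates were the farthest apart of all tested members. Igf2r, the receptor that carries IGF2 to the lysosome, had 5756 and 5215 reads against 5782 and 6047, or 160 and 166 against 169 and 169 CPM. This is a nearly flat profile. For Igf2r the log2 fold change was 0.06 with an SE of 0.10 (adjusted p = 0.809, edgeR). Airn, the noncoding RNA that silences Igf2r in cis in differentiated cells, had 10 and 8 reads in shScramble and 6 and 3 in shYthdf2.

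At the Peg3 locus of proximal chromosome 7, Peg3 itself, a zinc finger protein, had 2074 and 2124 reads in shScramble and 2666 and 3252 in shYthdf2 (57.6 and 67.4 against 78.0 and 90.9 CPM). All values of the knockdown were above those of the control. Peg3 had a log2 fold change of 0.43 with an SE of 0.13 (adjusted p = 0.0915, edgeR), and DESeq2 gave an adjusted p of 0.0362. Usp29, which starts beside Peg3, had 79 and 118 against 91 and 112 reads (log2 fold change -0.03, adjusted p = 0.971). Zim1, the maternally expressed zinc finger gene of the locus, had 54 and 57 against 37 and 92 reads (0.15, adjusted p = 0.898). Neither followed Peg3 beyond its own spread.

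The Snrpn locus, whose human counterpart underlies Prader-Willi and Angelman syndromes, held members at very different levels. Ube3a, the E3 ubiquitin ligase that is maternal in neurons only, had 4309 and 3624 reads in shScramble and 2478 and 3495 in shYthdf2, or 120 and 115 against 72.5 and 97.7 CPM. Both knockdown libraries were below both controls, replicate 1 by the wider margin. Ube3a had a log2 fold change of -0.46 with an SE of 0.14 (adjusted p = 0.102, edgeR), and the adjusted p was 0.0315 in DESeq2. Ndn, a MAGE family protein, had 500 and 228 reads in shScramble and 431 and 289 in shYthdf2. Mkrn3, a ubiquitin ligase, had 207 and 252 against 204 and 212. Neither passed (adjusted p = 0.968 and 0.693, edgeR). Magel2, a MAGE protein of endosomal recycling, had 4 and 0 reads in shScramble and 16 and 22 in shYthdf2, a fitted log2 fold change of 3.14 with an SE of 1.00 (adjusted p = 0.113). The estimate ran from 2.25 without shScramble replicate 2 to 7.21 without shScramble replicate 1, the second being set by the library with no read. Snrpn, which encodes an Sm protein of the spliceosome, had 6 and 0 reads in shScramble and 1 and 2 in shYthdf2. It shares 72.3% of its exon bases with Snhg14 and Snurf, and Snurf had 0 reads in all 4 libraries, so the level of this transcript cannot be read from the table.

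Impact and Sfmbt2 were the paternally expressed members nearest the threshold without passing, and Nap1l5 was farther from it. Impact, a regulator of the GCN2 kinase, had 5460 and 4707 reads in shScramble and 6629 and 7407 in shYthdf2 (152 and 149 against 194 and 207 CPM). Replicates of a group were nearly equal and the groups were apart. Impact had a log2 fold change of 0.41 with an SE of 0.10 (adjusted p = 0.0549, edgeR), and it passed in 6 of 13 other settings. Sfmbt2, a polycomb-related protein of the placenta and early embryo, had 820 and 649 reads in shScramble and 459 and 558 in shYthdf2 (22.8 and 20.6 against 13.4 and 15.6 CPM). Both knockdown libraries were below both controls. Sfmbt2 had a log2 fold change of -0.58 with an SE of 0.17 (adjusted p = 0.0856, edgeR; 0.0359 in DESeq2). Nap1l5, a retrogene related to nucleosome assembly proteins, had 14 and 28 reads in shScramble and 82 and 41 in shYthdf2, a log2 fold change of 1.48 with an SE of 0.55 (adjusted p = 0.167, edgeR). Replicates differed by 1.08 and 1.03 on the log2 scale in opposite order, and the estimate was 0.85 without shYthdf2 replicate 1 and 2.18 without shScramble replicate 2, where it passed.

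No member of the remaining loci passed. Mest had 7487 and 5143 reads in shScramble and 6124 and 6079 in shYthdf2 (208 and 163 against 179 and 170 CPM), with the knockdown between the controls. Its log2 fold change was -0.09 with an SE of 0.13 (adjusted p = 0.749, edgeR). Mest shares 31.2% of its exon bases with Copg2. Nnat, a membrane proteolipid, had 395 and 324 reads against 486 and 448, or 11 and 10.3 against 14.2 and 12.5 CPM. The groups did not overlap. Nnat had a log2 fold change of 0.33 with an SE of 0.18 (adjusted p = 0.349, edgeR). Blcap, whose intron holds Nnat, had 1151 to 1337 reads and a log2 fold change of -0.06 (adjusted p = 0.833).

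Gnas, the stimulatory G protein subunit, had 5144 and 4856 reads in shScramble and 5615 and 5329 in shYthdf2 (143 and 154 against 164 and 149 CPM). Its groups overlapped. The log2 fold change was 0.08 with an SE of 0.11 (adjusted p = 0.744, edgeR), and isoforms of opposite parental origin are summed in it. Gnasas1, the row that RefSeq gives for Nespas, had 174 and 152 reads against 113 and 150 (log2 fold change -0.36, adjusted p = 0.489). Trappc9, a vesicle tethering subunit, had 1142 and 1177 reads against 1100 and 1056, or 31.7 and 37.4 against 32.2 and 29.5 CPM. Its libraries overlapped. The log2 fold change was -0.16 with an SE of 0.14 (adjusted p = 0.563, edgeR). Peg13, the noncoding RNA inside Trappc9, had 191 to 267 reads and a log2 fold change of 0.20 (adjusted p = 0.672). Kcnk9, the potassium channel gene next to them, had 5 to 12 reads.

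Other loci hold a retrogene or an imprinted isoform inside a host gene. Zrsr1, a splicing factor retrogene, had 1103 and 923 reads in shScramble and 1137 and 1190 in shYthdf2 (30.6 and 29.3 against 33.3 and 33.3 CPM). The knockdown was higher by a small step. Its log2 fold change was 0.15 with an SE of 0.13 (adjusted p = 0.561, edgeR), and its host Commd1 had 1538 to 1899 reads and a log2 fold change of 0.08 (adjusted p = 0.766). H13, a signal peptide peptidase, had 1845 and 1445 reads against 1570 and 1432, or 51.2 and 45.9 against 45.9 and 40.0 CPM. The groups touched at 45.9 CPM. The log2 fold change was -0.18 with an SE of 0.13 (adjusted p = 0.481, edgeR), and Mcts2, the retrogene in its intron, had 1 to 6 reads and shares 75.5% of its exon bases with H13. Inpp5f, an inositol phosphatase gene with an imprinted brain isoform, had 1018 to 1322 reads and a log2 fold change of 0.14 (adjusted p = 0.581).

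Members were then set out by the allele they are usually expressed from. The 19 tested maternally expressed members had 11 positive and 8 negative log2 fold changes, a median size of 0.18 and 0 calls in edgeR. At an unadjusted p under 0.05, 4 of them were higher and 2 lower, where all genes had 11.0% and 9.80%. DESeq2 called Cdkn1c and Cd81 higher and Ube3a lower among them. The 22 paternally expressed members had 11 of each sign, a median size of 0.40 and 3 calls, with 6 higher and 3 lower at an unadjusted p under 0.05. The groups did not overlap in 9 maternal (47.4%) and 15 paternal members (68.2%), against 51.8% of all genes. The difference between the classes was not tested. Maternal and paternal members had median log2 fold changes of opposite sign at Igf2-H19, Peg13-Trappc9, Kcnq1 and Nnat-Blcap, and of the same sign at Peg3, Peg10-Sgce, Dlk1-Dio3, Grb10-Ddc, Snrpn and Zrsr1-Commd1. At Dlk1-Dio3 and Snrpn the paternal median was that of Dio3 and of Ndn, which lay next to 0 and turned sign in 5 and 3 of the 13 other settings. None of the members of the first 4 loci passed in edgeR. The summed level of all members was 2670 and 2621 CPM in shScramble and 2512 and 2586 CPM in shYthdf2, a nearly constant total.

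Variation between the replicates of a group was examined as the gap between their log2 CPM values. The members' median gap was 0.16 in shScramble and 0.22 in shYthdf2, and that of all genes tested was 0.20 and 0.23. A gap above 1 was seen in 5 of 41 members (12.2%) and in 13.7% of all genes. These were Igf2 and Magel2 in shScramble, Cdkn1c and Zim1 in shYthdf2, and Nap1l5 in both, all with 257 reads or fewer per library. Among members with more than 1000 reads in every library, shScramble gaps ran from 0.004 for Commd1 to 0.35 for Mest. Their shYthdf2 gaps ran from 0.001 for Igf2r to 0.62 for Ppp1r9a. In shYthdf2 the gaps of Tssc4 (0.57), Ube3a (0.43) and Cd81 (0.40) were also above the median of all genes. In 19 members (46.3%) the difference between the group means was larger than both gaps, against 38.7% of all genes. In 22 of 41 members the replicates differed in the same order in both groups (53.7%, and 60.6% of all genes). By these counts the members varied between replicates about as much as other genes of the table.

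**Figure D5:**
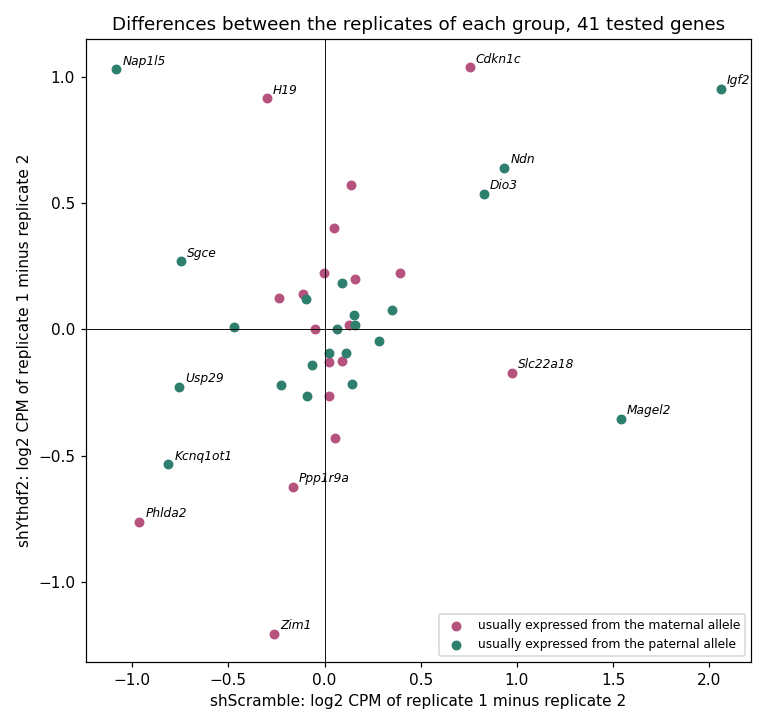
Difference in log2 CPM between replicate 1 and replicate 2 in shScramble (x axis) and in shYthdf2 (y axis) for the 41 tested members, coloured by the usually expressed allele. Most points lie near the centre, Igf2 lies farthest out at 2.06 and 0.95, and Nap1l5 and H19 changed order between the groups.

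A second list of 48 imprinted genes outside the set was read from the same fit. 45 had a row, 9 of these without a read in any library, and 26 were tested. None passed in edgeR. At an unadjusted p under 0.05, 2 of 26 were higher (Begain and Ampd3), against 11.0% of all genes. At that level 6 of 26 were lower (Slc38a4, Peg12, Atp10a, Copg2, Pon3 and Herc3), a larger share than the 9.80% of all genes. DESeq2 called 1 higher and 1 lower. Their median log2 fold change was -0.04. Of 17 factors that maintain imprints or the silent chromatin around them, all were tested and none passed in edgeR. Setdb1, the histone methyltransferase that works with TRIM28, was higher at an unadjusted p under 0.05, and Smchd1 and Hells were lower. That is 1 higher and 2 lower of 17, beside 11.0% and 9.80% of all genes, and shows nothing particular to these factors. DESeq2 called 1 higher, beside 5.08% of all genes. Zfp57 had 23851 and 19038 reads in shScramble and 22881 and 23697 in shYthdf2, with a log2 fold change of 0.07 (adjusted p = 0.745, edgeR). Trim28 had 54456 to 76618 reads and a log2 fold change of 0.14, and Dnmt1, which copies DNA methylation at replication, had 18101 to 20079 reads and a log2 fold change of -0.07. The factors' median log2 fold change was -0.03, with 5 positive and 12 negative, where all genes had 9213 positive and 9128 negative. These counts were not tested against each other.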

How the data were processed

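Poly(A) RNA of 4 libraries was sequenced from both ends. The authors deposited raw read counts per gene, made, per the file headers, with featureCounts 2.0.3 on a RefSeq annotation of mm10. Their processing notes name fastp 0.19.4, HISAT2 2.2.1 and DESeq2 1.40.2. Each read of a pair was counted, no strand was used although the libraries were stranded, and reads over several genes or positions were left out. 20 members share exon bases with another gene, 7 of them over 10%, and 6 are also annotated on an extra contig. The table held 0 other columns of per-sample values. Groups and replicate numbers came from the titles.

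The test was edgeR 4.0.16 (quasi-likelihood, two-sided, TMM scaling, filterByExpr with a minimum count of 10 and a minimum total of 15, no covariate, Benjamini-Hochberg over 18341 genes) in R 4.3.3, checked on simulated data. The biological coefficient of variation was 15.8%. RPKM was CPM divided by the exon length on the chromosome, and log2 CPM used a prior count of 2. Alternatives were DESeq2 1.42.0, limma 3.58.1 (voom), other scalings and filters, halved counts, a replicate block and each library left out. With 2 libraries a group, an exact permutation test cannot give a two-sided p below 0.333. The members and lists were chosen with earlier results of these data known. All members were named. Values per library with an SE were given for members past the threshold, the lowest p of each locus and the 3 highest per length. Genes of other lists were given with a value where they passed, and other values were added after they were seen. 3 listed genes had no row.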

Additional observations from a re-analysis of the deposited data

How the results depend on the processing

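Counts of calls moved with the settings. Against 1 member higher and 2 lower, no filter gave 9 higher and 5 lower, DESeq2 5 and 4, halved counts 2 higher, and the study's criteria 4 and 0. Leaving out 1 library gave 2 to 6 higher and 2 to 6 lower, the most without shYthdf2 replicate 2, where a lone library was assumed to vary like the others. Over all genes, 445 higher and 273 lower became 1095 and 843 with no filter, 800 and 602 with DESeq2, 692 and 592 without shScramble replicate 1, 522 lower without shYthdf2 replicate 1, and 1175 and 1113 without shYthdf2 replicate 2. The members' median log2 fold change of 0.08 was -0.013 with no filter, -0.018 in DESeq2 and 0.0070 to 0.14 with 1 library left out. Other imprinted genes had 1 higher and 1 lower with no filter and in DESeq2, and 0 to 1 higher and 0 to 2 lower with 1 library left out. Maintenance factors had 1 higher with no filter and in DESeq2, and 0 to 1 higher and 0 to 3 lower with 1 library left out. The cause of these shifts was not tested.

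Replicate numbers were not shown to pair the samples: deviations of the libraries numbered 1 correlated at 0.225, and the second principal component (29.4%) separated the numbers. With a replicate block, 9 members were higher and 5 lower, 3 and 4 of the other imprinted genes, 1 and 2 of the maintenance factors, and 1851 and 1674 of all genes. With no filter and with the block, the members higher were Peg3, Cdkn1c, Slc22a18, Tssc4, Cd81, Ddc, Magel2, Impact and Nap1l5, and those lower were Peg10, Ppp1r9a, Ube3a, Plagl1 and Sfmbt2. 28 members kept their sign in every setting. Near 0, Usp29 turned to 0.031 in limma-voom and 0.00096 with the replicate block, Dio3 to 0.00094 with no filter, 0.010 in limma-voom and 0.029 with the block, and Ndn to 0.0021 with the block. With 1 library left out, log2 fold changes ran from -0.13 to 0.00076 for Blcap, -0.036 to 0.19 for Commd1, -0.36 to 0.48 for Dio3, -0.80 to 0.12 for H19, -0.46 to 1.84 for Igf2, -0.77 to 0.048 for Kcnq1ot1, -0.25 to 0.010 for Meg3, -0.25 to 0.10 for Mest, -0.044 to 0.35 for Mirg, -0.43 to 0.048 for Mkrn3, -0.43 to 0.52 for Ndn, -0.37 to 0.40 for Usp29 and -0.61 to 0.64 for Zim1. Ythdf2 stayed between -1.59 and -1.50. Depth limits members under 100 reads, where a few reads set the fold change.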

Other observations

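Noncoding rows that lie within or beside the members were looked up after the members' values were seen. Snhg14, the long host transcript of the Snrpn locus, had 573 and 581 reads in shScramble and 562 and 578 in shYthdf2, with a log2 fold change of -0.07 (adjusted p = 0.850, edgeR). It was thus level across all 4 libraries, while Ube3a, which it runs antisense to, was lower in both knockdown libraries without passing. R74862, a transcript that shares 1.98% of the exon bases of Cd81, had 69 and 64 reads in shScramble and 137 and 100 in shYthdf2 (log2 fold change 0.78, adjusted p = 0.209, edgeR). The maternally expressed members of the Kcnq1 locus had the same sign, as did Ascl2, Tspan32 and Osbpl5 nearby, while Nap1l4 and Tnfrsf23 had the other. Hymai, the noncoding partner of Plagl1, had 8 and 22 reads in shScramble and 0 and 4 in shYthdf2 and was not tested. Igf2os had 0 to 4 reads.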
